A study of Mus musculus with 6 samples.

Results

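ATF4 ChIP-seq peaks that lay in the first intron of a gene were described in mouse embryonic fibroblasts (MEFs), WT or GCN2 KO, grown with leucine (+Leu) or without it (-Leu). A peak was counted here when its annotation placed it in intron 1 of a RefSeq transcript and when its window was marked neither as a repeat element nor as a CpG island. This rule used position only and no measured value. In WT MEFs it gave 435 of 4850 peaks with leucine and 651 of 6374 without, and in GCN2 KO MEFs 346 of 3566 with leucine and 209 of 2672 without, or 1641 of 17462 in all. Where 4 values follow one another, they are in this order.

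The MEFs were primary cells of the 129S6/SvEvTac strain, either wild-type or GCN2-/-, kept for 24 h in complete DMEM or in DMEM lacking leucine, and chromatin was precipitated with an ATF4 antibody (sc-200). Each of the 4 conditions was 1 sequenced library of pooled chromatin (2 experiments, each with 5 replicates or more). No difference between conditions therefore has a replicate check, and no p-value is given. The peaks of the -Leu libraries had been called against the +Leu input of the same genotype.

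ATF4 is a bZIP transcription factor that is translated when eIF2α is phosphorylated, and GCN2 is the kinase that phosphorylates eIF2α when uncharged tRNA accumulates during amino acid starvation. ATF4 binds as a dimer, often with a C/EBP protein, to composite sites of the form TGATGCAA that join a part of the CRE to a part of the C/EBP site. Its known targets include genes for amino acid uptake and synthesis, tRNA charging and the stress response. First introns lie just behind the promoter and commonly hold regulatory elements, including ATF4 sites described for several amino acid response genes.

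The following sequences show what lay under the strongest first-intron peaks. They are the 101 bases around the peak center, from the list in which the site scored highest, read 5′ to 3′ on the plus strand of the mouse reference genome (RefSeq, GRCm38, which mm10 names) and not from the reads of these libraries. Capitals mark TGATGNAA, the ATF4 motif with any base at position 6, or its reverse complement TTNCATCA. The first 11 are the highest-scoring sites over all lists, except that of Gm5095, which is not shown.
Atf5 (chr7:44819063-44819163): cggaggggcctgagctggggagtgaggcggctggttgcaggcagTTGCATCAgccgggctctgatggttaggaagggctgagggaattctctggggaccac
Paqr3 (chr5:97108487-97108587): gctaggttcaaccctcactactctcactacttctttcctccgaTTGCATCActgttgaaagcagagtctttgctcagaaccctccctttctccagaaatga
Slc7a5 (chr8:121898557-121898657): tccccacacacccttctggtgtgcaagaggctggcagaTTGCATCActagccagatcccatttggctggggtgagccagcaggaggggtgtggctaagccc
Shmt2 (chr10:127521884-127521984): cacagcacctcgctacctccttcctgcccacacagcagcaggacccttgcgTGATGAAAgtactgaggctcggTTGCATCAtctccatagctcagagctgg
Slit3 (chr11:35156792-35156892): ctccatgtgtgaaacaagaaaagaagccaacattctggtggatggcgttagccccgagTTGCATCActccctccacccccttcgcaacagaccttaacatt
Mthfd2 (chr6:83317114-83317214): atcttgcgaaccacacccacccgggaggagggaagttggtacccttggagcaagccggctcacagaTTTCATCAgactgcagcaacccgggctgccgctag
Nfe2l2 (chr2:75685621-75685721): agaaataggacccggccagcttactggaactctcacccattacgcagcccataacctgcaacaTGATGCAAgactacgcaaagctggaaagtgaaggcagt
Gpc6 (chr14:117146150-117146250): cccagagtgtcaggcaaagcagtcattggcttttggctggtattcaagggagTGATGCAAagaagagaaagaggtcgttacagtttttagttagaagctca
N4bp2l1 (chr5:150583843-150583943): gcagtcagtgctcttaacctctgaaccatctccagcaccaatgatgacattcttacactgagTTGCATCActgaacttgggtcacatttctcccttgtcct
Soat2 (chr15:102150906-102151006): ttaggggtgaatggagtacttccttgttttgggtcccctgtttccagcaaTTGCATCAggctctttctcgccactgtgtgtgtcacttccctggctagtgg
Dnm2 (chr9:21439604-21439704): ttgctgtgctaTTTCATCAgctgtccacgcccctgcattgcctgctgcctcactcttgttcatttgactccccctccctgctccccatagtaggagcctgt

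Each of these 11 windows held the motif. In 9 it was TGATGCAA, and in Mthfd2 and Dnm2 it was TGATGAAA. The Shmt2 window held both forms, 1 on each strand. The next 8 sequences are Arhgap35, the next site by score, and further sites that were found in 3 or 4 of the lists.
Arhgap35 (chr7:16591463-16591563): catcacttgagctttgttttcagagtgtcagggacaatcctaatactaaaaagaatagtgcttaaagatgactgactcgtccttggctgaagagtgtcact
Sars (chr3:108444158-108444258): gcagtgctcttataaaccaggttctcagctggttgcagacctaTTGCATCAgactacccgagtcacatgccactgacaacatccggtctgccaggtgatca
Eif4ebp1 (chr8:27261235-27261335): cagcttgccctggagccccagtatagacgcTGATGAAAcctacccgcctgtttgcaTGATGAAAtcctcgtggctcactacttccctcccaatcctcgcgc
Gm14164 (chr2:152350019-152350119): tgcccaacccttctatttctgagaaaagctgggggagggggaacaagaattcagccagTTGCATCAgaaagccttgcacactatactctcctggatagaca
Pfkp (chr13:6636677-6636777): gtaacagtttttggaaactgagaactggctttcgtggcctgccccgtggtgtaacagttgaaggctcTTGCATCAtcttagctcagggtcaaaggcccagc
Rhbdd1 (chr1:82316956-82317056): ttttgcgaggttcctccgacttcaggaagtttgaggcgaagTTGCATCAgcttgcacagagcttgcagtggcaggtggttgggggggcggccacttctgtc
Sfi1 (chr11:3192458-3192558): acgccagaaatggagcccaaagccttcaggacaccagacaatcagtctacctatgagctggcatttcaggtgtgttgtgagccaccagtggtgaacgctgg
Glp1r (chr17:30902805-30902905): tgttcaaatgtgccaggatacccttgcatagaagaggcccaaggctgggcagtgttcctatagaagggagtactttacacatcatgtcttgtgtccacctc

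Of these 8 windows, 5 held the motif within the 101 bases, with 2 copies of TGATGAAA on the plus strand in Eif4ebp1. No match lay in the windows of Sfi1, Glp1r or Arhgap35. At Arhgap35 a TGATGCAA was centered 49 bp from the WT -Leu peak center, so it ran past the edge of the window, and it was 17 bp from the WT +Leu center. At Sfi1 and Glp1r no TGATGNAA was found in the whole 301-base window of any list.

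Score gave each peak its place in its list. The score is the peak caller's whole number, starts at 13 in these lists, has no stated scale and was not normalized between libraries. Its lowest value would be that of -10 times the log10 of 0.05, cut to a whole number, so it may be a log of significance. A ratio of scores is given below as a ratio of these numbers and not of signal. First-intron peaks of WT -Leu reached far higher scores than those of the other lists. Their highest score was 808 with and 1569 without leucine in WT, and 228 with and 208 without in GCN2 KO. Their median was 30, 34, 29 and 30, so the lists differed in a strong minority of peaks and hardly in the middle. Scores of at least 100 belonged to 20 of 435, 97 of 651, 6 of 346 and 2 of 209 first-intron peaks, and scores of at least 500 to 4, 21, 0 and 0 of them.

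**Figure D1:**
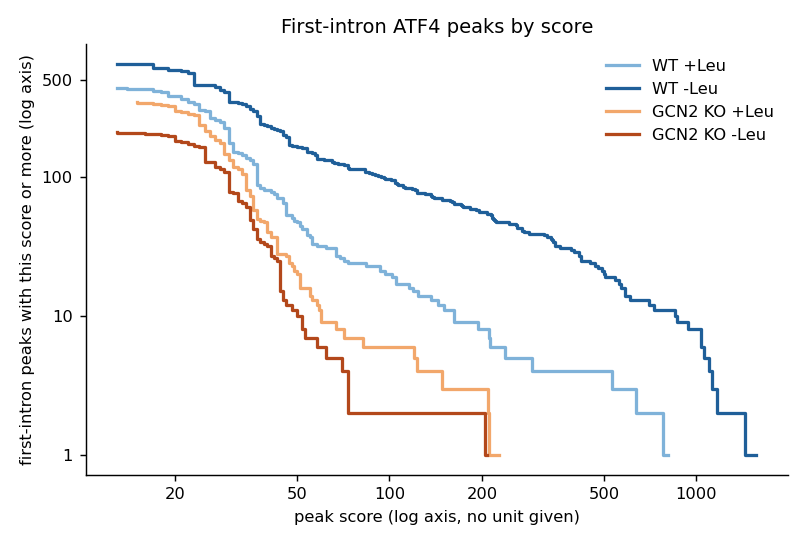
Number of first-intron ATF4 peaks (y, log axis) with a score at or above the value on x (log axis, the caller's score, no unit given) in each of the 4 lists, 1 library each. The WT -Leu curve lies above the others throughout and runs on to 1569, whereas the GCN2 KO curves end at 228 and 208.

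In WT MEFs the first-intron peaks numbered 1.5 times as many in -Leu as in +Leu (95% interval 1.33 to 1.69, counting error only). In GCN2 KO MEFs the ratio was 0.604 (0.509 to 0.717). The same ratio over all peaks was 1.31 (1.27 to 1.36) in WT and 0.749 (0.713 to 0.788) in GCN2 KO. The first-intron ratio was thus further from 1 than that of all peaks in both genotypes, but the intervals overlapped in both. Among WT first-intron peaks with TGATGCAA the count went from 29 to 66, a ratio of 2.28 (1.48 to 3.51), and among those of score 100 or more it went from 20 to 97, a ratio of 4.85 (3.01 to 7.81). Neither rise was particular to first introns. With the motif, later-intron peaks went from 22 to 113 (5.14, 3.27 to 8.08) and all WT peaks from 131 to 442. A score of 100 or more was held by 1.86% of all WT peaks with leucine and 9.82% without. In GCN2 KO the first-intron counts were 5 and 6 with the motif and 6 and 2 at a score of 100 or more, too few for a direction.

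In WT, first introns held 8.97% of the peaks with leucine (95% Wilson interval 8.2 to 9.81) and 10.2% without (9.49 to 11.0). In GCN2 KO they held 9.70% with leucine (8.77 to 10.7) and 7.82% without (6.86 to 8.90). The share was 1.24 percentage points higher in -Leu than in +Leu in WT (interval 0.140 to 2.33). It was 1.88 points lower in GCN2 KO (difference -1.88, interval -3.28 to -0.457). Strong peaks were a larger share of first-intron than of later-intron peaks in 3 lists. Later introns were the second or a further intron, under the same filter on repeats and CpG islands. A score of 100 or more was held by 14.9% of first-intron and 7.88% of later-intron peaks in WT -Leu, a difference of 7.02 points (4.13 to 10.2). With leucine the difference was 3.69 points (1.93 to 6.12) in WT and 1.62 points (0.560 to 3.62) in GCN2 KO, whereas its interval held 0 in starved GCN2 KO MEFs (0.818 points, -0.128 to 3.29). Over all peaks a score of 100 or more was held by 1.86%, 9.82%, 0.897% and 0.487%. Strong peaks were not particular to first introns. In WT -Leu a score of 50 or more was held by 166 of 651 first-intron and 110 of 253 promoter peaks. It was also held by 412 of 1728 intergenic peaks on assembled chromosomes outside repeats and CpG islands. Among the 20 highest-scoring peaks of each list, 4, 4, 4 and 2 lay in first introns.

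The ATF4 motif was then counted in the reference sequence within 50 bp of each center. TGATGCAA was present in 29 of 435 first-intron peaks of WT MEFs with leucine (6.67%, 4.68 to 9.41) and in 66 of 651 without it (10.1%, 8.05 to 12.7). In GCN2 KO MEFs it was present in 5 of 346 with leucine (1.45%, 0.619 to 3.34) and in 6 of 209 without it (2.87%, 1.32 to 6.12). Over all peaks on assembled chromosomes the shares were 2.71%, 6.95%, 1.07% and 1.09%. Equally wide windows shifted by 1 kb upstream and downstream held it in 0.115%, 0.230%, 0.145% and 0.478%. The share was thus higher at first-intron centers than beside them in every list, and the intervals of centers and neighbors were apart in both WT lists but overlapped in both GCN2 KO lists. First-intron windows of WT -Leu had the motif more often than those of GCN2 KO -Leu by 7.27 points (GCN2 KO minus WT -7.27, -10.3 to -3.40), and in +Leu the difference was also toward WT (-5.22, -8.09 to -2.48).

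Set beside later introns, first introns carried TGATGCAA more often in 3 lists, by 4.85 points in WT +Leu (2.66 to 7.66), by 3.29 points in WT -Leu (0.817 to 6.08) and by 2.32 points (0.543 to 5.58) in GCN2 KO -Leu. The interval of the WT -Leu difference held 0 when the count was limited to peaks within 5 kb of a TSS (3.42 points) or to those further away (2.52 points). In GCN2 KO +Leu the difference was 0.463 points and its interval held 0 (-0.740 to 2.41). Annotated promoters, at the other side, carried it more often than first introns over all scores in both WT lists (first introns minus promoters -5.94 points, -13.4 to -0.396, with leucine and -5.28, -10.7 to -0.589, without) and in GCN2 KO +Leu (-10.6, -19.4 to -4.91). Against first-intron peaks within 5 kb of a TSS alone, the intervals in both WT lists held 0 (-2.88, -11.0 to 4.76, and -3.82, -9.83 to 2.21). With both classes limited to a score of 50 or more, at any distance from a TSS, the WT differences from promoters were 0.417 and 1.31 points, also with intervals that held 0. With any base at position 6, first-intron windows matched in 37 (8.51%), 102 (15.7%), 10 (2.89%) and 7 (3.35%) peaks of the 4 lists, against 4.26%, 11.0%, 2.23% and 2.26% over all peaks.

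**Figure D2:**
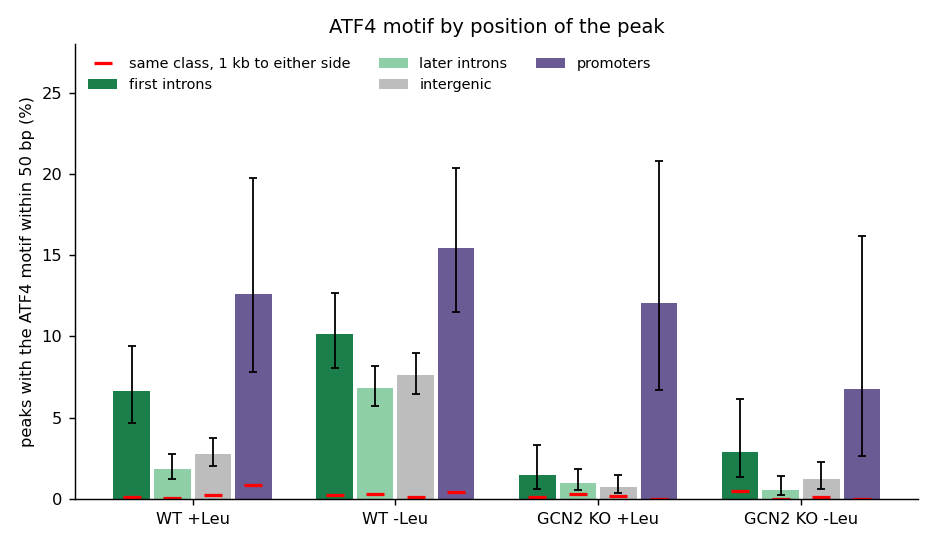
Share of peaks holding TGATGCAA 50 bp or less from the center (y, percent) by annotated position in each list; bars are shares, black lines 95% Wilson intervals and red dashes the share in windows 1 kb to either side. First introns stood above later introns in all 4 lists, with an interval of the difference above 0 in all but GCN2 KO +Leu, and promoters stood above both.

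The position of the match was counted in the same windows. Of the 240 TGATGNAA matches found in the 301-base windows of first-intron peaks over the 4 lists, 165 (68.8%) began and ended within 50 bp of the center, with a median distance of 12.5 bp. A match at a site of several lists was counted once for each list, so these are not all separate motifs. The base at position 6 of the 165 was C in 106, A in 38, T in 15 and G in 6. At the centers of WT -Leu alone it was C in 66, A in 23, T in 14 and G in 3. In the windows 1 kb away the WT -Leu matches were spread otherwise, with A in 8, C in 3, G in 8 and T in 3 of 22. A T directly after TGATGCAA, which completes the longer form TGATGCAAT, followed 48 of the 106 TGATGCAA matches at centers over the 4 lists. The motif lay on the strand of the gene in 59 of the 106.

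Other motifs of bZIP dimers were searched on both strands in the same way. The AP-1 motif TGANTCA, which Fos and Jun dimers bind, lay in 11 (2.53%), 38 (5.84%), 6 (1.73%) and 5 (2.39%) first-intron windows of the 4 lists. Over all peaks its share was 2.85%, 4.42%, 2.31% and 2.63%. In WT -Leu the first-intron share exceeded that of the neighboring windows (2.0%, 1.37 to 2.91, against 4.28 to 7.91 at the centers), and in the other lists the intervals of centers and neighbors overlapped. This excess was not particular to first introns. In WT -Leu later introns the share was 4.18% (3.32 to 5.26) at centers and 2.39% (1.93 to 2.97) beside them. For intergenic peaks it was 5.09% (4.15 to 6.23) and 3.39% (2.83 to 4.04), while at promoters the intervals overlapped. The full CRE palindrome TGACGTCA and the C/EBP palindrome TTGCGCAA were found in 0 first-intron windows of every list, where a count of 0 of 651 leaves an upper Wilson limit of 0.587% in WT -Leu. Over all peaks they were as rare, at 3, 9, 2 and 2 peaks for the CRE and 0, 0, 1 and 0 for the C/EBP palindrome.

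The motif share of first-intron peaks went up with the score. In WT -Leu TGATGCAA was present in 1 of 245 peaks with a score under 30, in 10 of 240 from 30 to 49, in 12 of 69 from 50 to 99, in 28 of 76 from 100 to below 500 and in 15 of 21 at 500 or more. In WT +Leu the series was 3 of 212, 5 of 175, 6 of 28, 12 of 16 and 3 of 4. All 4 of the last had TGATGNAA. In the GCN2 KO lists, 3 of the 6 first-intron peaks with a score of 100 or more in +Leu and 1 of the 2 in -Leu had TGATGCAA, and 5 and 2 had TGATGNAA. The difference from later introns was uneven across scores. At a score of 50 or more the share was 43.8% in first and 17.4% in later introns of WT +Leu (difference 26.4 points, 9.55 to 42.1), but 33.1% and 33.3% in WT -Leu (difference -0.201, -9.06 to 8.97).

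**Figure D3:**
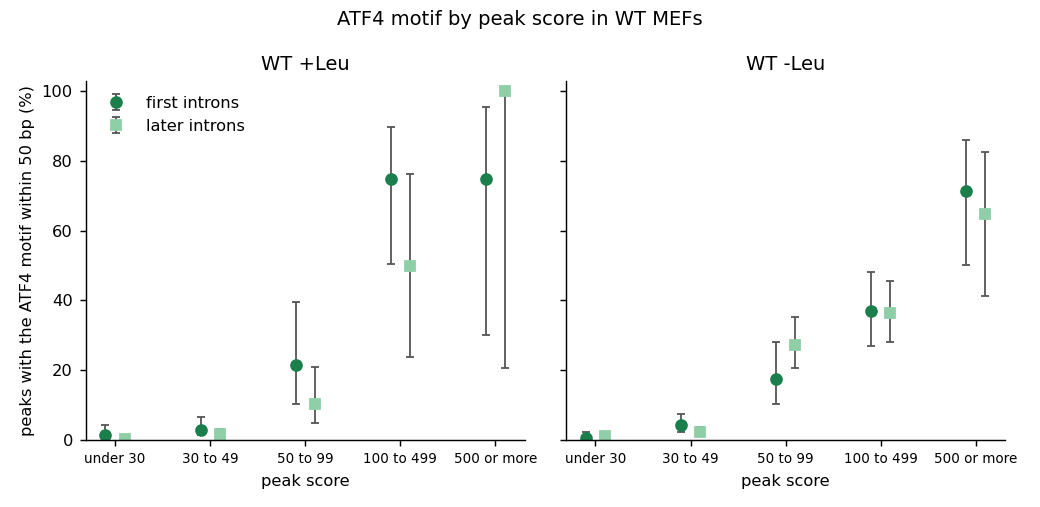
Share of first-intron and later-intron peaks holding TGATGCAA 50 bp or less from the center (y, percent) in bands of the score (x) in WT +Leu and WT -Leu, with 95% Wilson intervals. The first-intron share in WT -Leu went from 0.408% under 30 to 71.4% at 500 or more, and the intervals of first and later introns overlapped in every WT -Leu band.

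First-intron peaks lay near transcription start sites (TSSs) more often than later-intron peaks. Within 5 kb of the nearest TSS were 33.1%, 38.4%, 35.5% and 34.0% of them, against 11.3%, 9.64%, 9.50% and 10.8% of later-intron peaks. A first intron begins at the first exon, so a short distance is in part given by the rule. The median distance was 11074 bp in WT +Leu and 9452 bp in WT -Leu. Of the 1641 peaks, 46, 73, 39 and 17 per list lay within 1 kb, and in WT -Leu these had TGATGCAA in 11 of 73 cases (15.1%), against 18 of 177 between 1 and 5 kb and 8 of 89 beyond 50 kb. Motif-bearing first-intron peaks were thus found at every distance in the WT lists. Where the intron could be placed in the reference annotation, the median position of a peak was 46.5%, 48.6%, 54.3% and 48.8% of the way along it, and the median length of the intron was 25.3 to 31.5 kb. The median GC content per list was 51.8% to 53.5% in first-intron and 52.2% to 53.5% in later-intron windows.

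The 1641 peaks fell on 1562 sites when centers 300 bp or less apart were joined. Of these, 1499 were in 1 list, 48 in 2, 9 in 3 and 6 in all 4. TGATGCAA lay within 50 bp of a center at 40 (2.67%) of the sites in 1 list, 22 (45.8%) of those in 2, 5 of the 9 in 3 and 5 of the 6 in all 4. Sites that recurred held the motif more often than sites of a single list. The 35 sites of both WT lists but no GCN2 KO list had it in 22 cases, and the 4 sites of both GCN2 KO lists but no WT list in 0.

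Recurrence followed the score. All 20 first-intron peaks of WT +Leu with a score of 100 or more had a WT -Leu peak within 300 bp, as did 12 of 28 from 50 to 99, 8 of 175 from 30 to 49 and 6 of 212 under 30. In later introns the same series was 11 of 11, 10 of 58, 15 of 501 and 11 of 638. Over all scores, 46 of 435 first-intron peaks (10.6%, 8.02 to 13.8) had such a partner. This stood beside 6.35% over all WT +Leu peaks, 31.1% at promoters and 3.89% in later introns (difference from later introns 6.68 points, 3.84 to 10.1). Counted from the other list, 50 of the 651 WT -Leu peaks (7.68%) had a WT +Leu peak. In GCN2 KO, 9 of 346 first-intron +Leu peaks (2.60%, 1.37 to 4.87) had a -Leu peak, beside 2.75% over all peaks. The 6 GCN2 KO +Leu peaks and the 2 GCN2 KO -Leu peaks with a score of 100 or more were all listed in both WT lists. The same was so of the 1 later-intron peak of such a score in each GCN2 KO list.

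Most of the strongest first-intron peaks of leucine-starved WT MEFs were in no GCN2 KO list, as was so of strong peaks anywhere. Of the 97 WT -Leu peaks with a score of 100 or more, 37 had a WT +Leu peak, 11 a GCN2 KO +Leu peak and 8 a GCN2 KO -Leu peak (38.1%, 11.3% and 8.25%). Over all 626 WT -Leu peaks of such a score these shares were 30.5%, 10.5% and 6.39%, and of the 130 in later introns 28, 7 and 6 were listed. Over all scores 9 of the 651 WT -Leu first-intron peaks (1.38%, 0.729 to 2.61) had a GCN2 KO -Leu peak, beside 1.27% over all WT -Leu peaks. In +Leu 12 of 435 (2.76%, 1.58 to 4.76) had a GCN2 KO +Leu peak, beside 1.92%. A peak missing from a list was below the caller's limit there and may still have had signal, and the depth of the libraries is unknown.

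**Figure D4:**
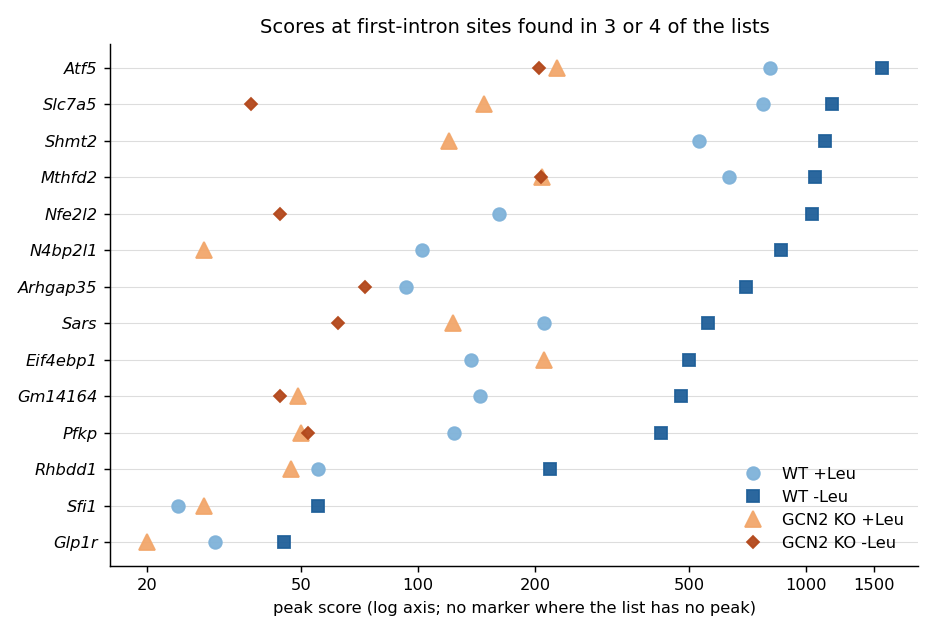
Peak score (x, log axis) in each list at 14 first-intron sites found in 3 or 4 lists, 1 row per site under its nearest gene and 1 library per marker; no marker stands where a list has no peak. WT -Leu was the highest at each of the 14 sites, and 6 of them have a marker for GCN2 KO -Leu and GCN2 KO +Leu both.

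The 6 sites of all 4 lists were at Atf5, Slc7a5, Mthfd2, Sars, Pfkp and Gm14164. Atf5 encodes a bZIP factor of the integrated stress response, and its site, at -2445 bp from the Atf5 TSS in WT +Leu (upstream of it), lay in the first intron of an overlapping Il4i1b transcript. It scored 808, 1569, 228 and 205. Slc7a5 encodes the light chain of the LAT1 transporter, which takes up leucine, and scored 776, 1171, 148 and 37 about 9 kb behind its TSS. Mthfd2, a mitochondrial enzyme of folate one-carbon metabolism, scored 635, 1058, 209 and 208, with the fed WT peak 444 bp behind its TSS. The Mthfd2 and Atf5 sites were thus the only first-intron peaks of GCN2 KO -Leu above 100.

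Sars, the seryl-tRNA synthetase gene, scored 211, 559, 123 and 62. The Sars peak centers of the GCN2 KO lists lay 59 and 60 bp from the middle of its TGATGCAA, while those of the WT lists lay 9 and 3 bp from it, which is why only the WT windows counted as motif windows. Pfkp, the platelet-type phosphofructokinase of glycolysis, scored 124, 422, 50 and 52. The predicted gene Gm14164 scored 144, 477, 49 and 44. At each of the 6 sites the WT -Leu score was the highest, and the GCN2 KO -Leu score was below both WT scores.

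A further 9 sites were found in 3 lists. Shmt2, the mitochondrial serine hydroxymethyltransferase that feeds the same one-carbon pathway as Mthfd2, scored 530 and 1121 in the WT lists and 120 in GCN2 KO +Leu, and was not listed for starved GCN2 KO MEFs. Eif4ebp1 encodes 4E-BP1, the repressor of cap-dependent translation that mTORC1 phosphorylates, and scored 137, 500 and 211 in the same 3 lists. Its GCN2 KO +Leu score was above its WT +Leu score, which was the case at no other site of 3 or 4 lists except Sfi1. Rhbdd1, a rhomboid-type protease gene, scored 55, 219 and 47. The N4bp2l1 site scored 102, 863 and 28.

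A pair of 3-list sites had a GCN2 KO -Leu peak in place of a GCN2 KO +Leu peak. Nfe2l2, which encodes the antioxidant bZIP factor NRF2, scored 162 and 1038 in the WT lists and 44 in GCN2 KO -Leu, the last with its center 65 bp from the motif. Arhgap35, the gene of the GTPase-activating protein p190A, scored 93, 701 and 73. The sites of Sfi1 (24, 55 and 28) and Glp1r (30, 45 and 20) stayed at low scores in each list that held them, which were both WT lists and GCN2 KO +Leu. At Sfi1 and N4bp2l1 the peak of 1 list did not itself meet the first-intron rule.

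Beyond these, the 10 strongest first-intron peaks of WT +Leu included Rbm20 (291), which encodes a splicing regulator, Clic4 (238), Crispld2 (213) and Slit3 (194), a secreted guidance ligand. All 4 had TGATGCAA within 50 bp, were listed in WT -Leu at 569, 494, 390 and 1101, and were in neither GCN2 KO list. Of the 10 strongest in WT +Leu, 9 held TGATGCAA and 10 TGATGNAA, and the same counts held in WT -Leu. In the GCN2 KO lists the 10 strongest went down to scores of 60 and 52. Only 3 in each held TGATGCAA, and 5 and 4 held TGATGNAA.

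The GCN2 KO peaks of those 10 that were in no other list were weak and without the motif near their centers. In +Leu they were Tmem200c (82), D430019H16Rik (71), Tmem54 (67) and Cacng2 (60). In -Leu they were Mtnr1a (73), Osbpl5 (70), Grip1 (58), St6galnac3 (53) and Ksr2 (52). None of the 9 held TGATGNAA within 50 bp of the center.

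Leucine starvation of WT MEFs was next described at sites listed in both media. At the 46 common first-intron sites of WT the -Leu score divided by the +Leu score had a median of 2.90 and a range of 0.774 to 26.0. It was higher in -Leu at 41 sites, equal at 1 and lower at 4. At 29 of the 46 (63.0%) it was at least 2 times higher, beside 58.4% of all common WT peaks, so this share was near that of peaks anywhere. At the 9 common sites of GCN2 KO the median was 0.899, with 3 sites higher, 6 lower and 0 at least 2 times higher, beside 5.10% of all common GCN2 KO peaks. Because scores were not scaled between libraries, percentile ranks within each list were compared too. On that scale 19 of the 46 WT sites ranked higher in -Leu and 27 lower.

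**Figure D5:**
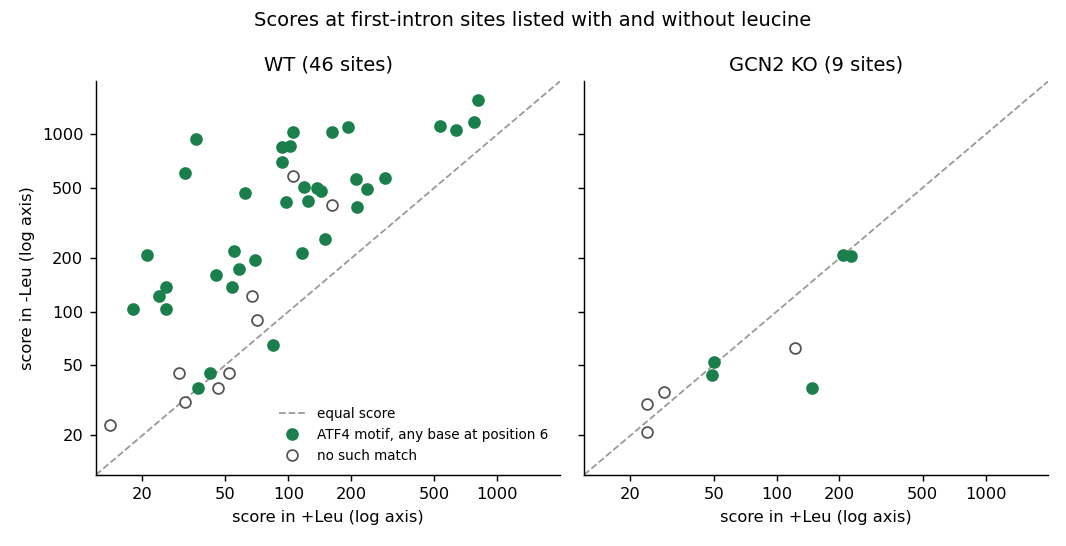
Score in -Leu (y, log axis) against score in +Leu (x, log axis) at first-intron sites with a peak in both media, for WT (46 sites) and GCN2 KO (9 sites); filled points had TGATGNAA within 50 bp of either center, and the dashed line marks equal scores. Of the WT points 41 lie above the line and 37 are filled, whereas the GCN2 KO points lie on both sides of it.

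The largest score ratios over the 46 WT sites were at motif sites that scored near the first-intron median in +Leu. Gpc6, a glypican gene, went from 36 to 937 (26.0 times) and Nfil3, a bZIP repressor gene, from 32 to 606 (18.9 times). Among the 10 common sites with the highest -Leu scores, which include Gpc6 but not Nfil3, several had +Leu scores well above that median. Of these, Gm5095 on chromosome 18 went from 105 to 1031, Soat2, which encodes a sterol O-acyltransferase, from 93 to 849, N4bp2l1 from 102 to 863 and Nfe2l2 from 162 to 1038 (9.82, 9.13, 8.46 and 6.41 times). The top sites of WT +Leu moved less, by 1.94 times at Atf5, 1.51 at Slc7a5, 1.67 at Mthfd2 and 2.12 at Shmt2. The +Leu score is the divisor of the ratio, so a smaller ratio at sites picked by a high +Leu score is in part given by that choice. Common sites carried the motif far more often than the rest, with TGATGCAA at 28 of the 46 common WT +Leu peaks and at 1 of the 389 others. The same held over all WT +Leu peaks, with 116 of 308 common peaks and 15 of the 4542 others, and in later introns, with 17 of 47 and 5 of 1161. The centers of a common pair lay a median of 13.5 bp apart, and 38 of the 46 were within 50 bp.

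A larger set of sites was listed only in starved WT MEFs. These were 595 sites with a median score of 30, of which 60 scored 100 or more. Most sites of every list were in that list alone, with 385 in WT +Leu only, 326 in GCN2 KO +Leu only and 193 in GCN2 KO -Leu only. Of all 626 WT -Leu peaks with a score of 100 or more, 423 had no peak in another list. The highest of the 595 sites was Paqr3, which encodes a Golgi membrane protein, at 1441 with TGATGCAA near the center. Dnm2, the gene of dynamin 2, followed at 730 with TGATGAAA. Of the 60 sites, 16 held TGATGCAA, 27 (45.0%) TGATGNAA and 8 the AP-1 motif TGANTCA, with 0 holding both of the last, so that 25 held neither. These shares were near those of the 423 WT -Leu peaks anywhere that had such a score and no peak in another list, of which 27.4% held TGATGCAA, 44.4% TGATGNAA and 11.3% TGANTCA. Of the 97 first-intron peaks of such a score, listed elsewhere or not, 40 of 76 below 500 and 18 of 21 at 500 or more held TGATGNAA. Cxadr (586), Gdf15 (413) and Slc3a2 (347) were among those with no TGATGNAA in the whole 301-base window. Gdf15 and Slc3a2, but not Cxadr, held TGATGCAA with 1 differing base within 50 bp, as did 27.0% of WT -Leu first-intron peaks with at most 1 differing base. Cxadr, which encodes a cell adhesion receptor, is named after its value was seen.

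Selected genes were read from 9 lists holding 287 genes, chosen with earlier results of these data known. The lists covered pathways that ATF4 is known for, and also fibroblast matrix and lineage genes. First-intron peaks at these genes were few. With the Atf5 site, counted by its nearest gene, they made up 16 of the 435 peaks, 25 of the 651, 8 of the 346 and 7 of the 209. Their median score was 88.5, 271, 135.5 and 44, beside 30, 34, 29 and 30 for all first-intron peaks. Because the lists were chosen with earlier results known, a high median is in part given by that choice. Scores as low as 16 were among them. TGATGNAA was within 50 bp in 10, 14, 5 and 3 of the peaks at listed genes. Over all genes, first-intron peaks lay in 400, 580, 333 and 197 host genes. The share of all genes with such a peak was not computed, so the counts per gene list below have no background share beside them. They take in peaks of any score.

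For tRNA charging, 3 of 38 aminoacyl-tRNA synthetase genes had a first-intron peak in each WT list and 1, Sars, in each GCN2 KO list. Gars, the glycyl-tRNA synthetase gene, scored 119 in WT +Leu and 503 in WT -Leu with TGATGCAA, 947 and 944 bp from its TSS. Eprs, the glutamyl-prolyl-tRNA synthetase gene, scored 53 in WT -Leu only, with TGATGNAA. Among 26 amino acid transporter genes, 3, 2, 1 and 1 had a first-intron peak. Beside Slc7a5, its partner Slc3a2, the heavy chain of LAT1, scored 347 in WT -Leu only, and Slc38a7, a glutamine transporter gene, scored 51 in WT +Leu only.

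Of 28 genes for amino acid and one-carbon enzymes, 4, 4, 2 and 1 had a first-intron peak. Aldh1l2, which encodes the mitochondrial 10-formyltetrahydrofolate dehydrogenase, scored 58 in WT +Leu and 173 in WT -Leu at the same site, and 66 at a further site of its first intron in WT -Leu. Cth, the cystathionine gamma-lyase gene, scored 48 in WT -Leu with TGATGNAA. The mitochondrial branch of one-carbon metabolism thus had first-intron peaks at Shmt2, Mthfd2 and Aldh1l2, all of which were in both WT lists.

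Of 35 genes for regulators and effectors of the integrated stress response, 0, 3, 0 and 0 had a peak in their own first intron. The site nearest to Atf5 lies upstream of it in the first intron of Il4i1b, and with it the counts were 1, 4, 1 and 1. Sel1l, an adaptor of endoplasmic reticulum-associated degradation, scored 542 in WT -Leu only, with TGATGCAA. Gdf15, a stress-induced secreted factor of the TGF-β family, scored 413 in WT -Leu only, 640 bp from its TSS. Of 31 mTORC1 signaling genes, 2, 3, 1 and 0 had one, and beside Eif4ebp1 these included Sesn2, an inhibitor of mTORC1, at 54 in WT +Leu and 138 in WT -Leu. Of 48 bZIP genes, 2, 5, 1 and 2 had a peak in their own first intron, and those with a score of 30 or more were at Nfe2l2 and Nfil3.

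The other lists held autophagy and lysosome genes and fibroblast genes. Of 33 autophagy and lysosome genes, 1 had a first-intron peak in each WT list and 0 in each GCN2 KO list, none of them scoring 30 or more. Of 43 fibroblast matrix and adhesion genes, 3 had one in WT -Leu, with Timp3, a metalloproteinase inhibitor gene, at 73 and Pxn, the paxillin gene, at 38, and 1 in GCN2 KO -Leu. Of 14 genes that mark fibroblast lineages, Prrx1, a homeobox gene of mesenchyme, scored 271 in WT -Leu with TGATGCAA. Twist2, a basic helix-loop-helix gene of mesenchyme, scored 34 in GCN2 KO +Leu. Peak lists do not measure expression, so the identity of the cells could not be checked against marker levels.

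Some genes recurred across lists without sharing a site. By the transcript of the annotation, first-intron peaks lay in 1198 genes, of which 955 were in 1 list and 10 in all 4. Those 10 were the 6 genes hosting the sites above and Cacng2, Grip1, Sdk2 and Megf11, where the highest score was 60. Of the last, Megf11 had a site in both WT lists, at 37 in each, and Cacng2, Grip1 and Sdk2 had no site in more than 1 list. Of the 59 genes with first-intron peaks in 3 or 4 lists, 37 had no site shared between any of the lists. The first introns of those 37 were long, with a median of 114.9 kb against 22.0 kb over all 1198 genes, and their scores did not go above 183. The 13 genes that recurred at a site of 3 or 4 lists had a median first intron of 12.6 kb.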

How the data were processed

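The data were 4 peak lists from ATF4 ChIP-seq of MEFs, each from 1 library. Reads had been trimmed with fastx, aligned to the mm10 genome by BWA 0.7.12, passed to MACS2 2.1.0 (--nomodel, false discovery rate of 0.05) and the summits ±150 bp annotated in HOMER 4.7. The score per peak was deposited as the caller gave it. The authors also deposited TSS distances (bp) and base composition, the latter as a fraction of the window from 0 upward. The 2 input libraries were not analysed here.

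First-intron peaks were taken by the annotation columns, with names of nearest genes from the lists and host transcripts and introns from RefSeq. The GC content of every peak on an assembled chromosome equalled that of the GRCm38 reference (4839, 6362, 3549 and 2658 peaks), so its sequence was used for motifs, searched on both strands. Peaks were common when centers were 300 bp or less apart. Shares have 95% Wilson intervals and differences of shares Newcombe intervals, which cover counting error only; depth is unknown. Overlaps and motif searches were first tested on simulated peaks. The members, gene lists and tests were chosen with earlier results of these data known. Named are the 10 highest-scoring first-intron peaks per list, sites of 3 or more lists, peaks of score 30 or more at listed genes, the 10 common sites per genotype with the highest -Leu score, and genes recurring in all 4 lists; sequences are those of the 12 top sites outside chromosome 18 and of the sites of 3 or more lists, 1 of which is not reported here. Alternatives were other score limits, repeats and CpG islands included, assembled chromosomes only, other motif windows, overlap distances and TSS limits, and percentile ranks. The work was done in Python 3.11.15 with pandas 2.3.3, numpy 2.4.6, pysam 0.24.0, scipy 1.17.1 and matplotlib 3.10.9, beside samtools 1.23.1.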

Additional observations from a re-analysis of the deposited data

Results flagged for a closer look

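With 1 library per condition, the difference between the genotypes was not tested in any of the following pairs, which stand here because the values of WT and GCN2 KO pointed opposite ways. The ratio of first-intron peaks in -Leu over +Leu was 1.5 in WT and 0.604 in GCN2 KO. The median score ratio at common first-intron sites was 2.90 in WT, over 46 sites, and 0.899 in GCN2 KO, over 9 sites. Its interval lay above 1 in WT (1.94 to 4.23) but held 1 in GCN2 KO (0.504 to 1.21). On percentile ranks the interval held 1 in both WT (0.991 to 1.01) and GCN2 KO (0.847 to 1.45), so the ranks showed no such contrast. The share of peaks in first introns differed between -Leu and +Leu by 1.24 percentage points in WT and by -1.88 in GCN2 KO. The share of first-intron peaks within 5 kb of a TSS differed by 5.30 points in WT and by -1.58 in GCN2 KO, and both of these last intervals held 0 (-0.541 to 11.0 and -9.56 to 6.67).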

How the results depend on the processing

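Of 132 alternative values computed for 30 results, 80 stayed within the interval or call of the first value. With a score of 30 or more, the -Leu over +Leu ratio of first-intron peaks was 1.82 in WT and 0.745 in GCN2 KO. The first-intron share in GCN2 KO +Leu was then 8.57%, the motif share was 11.7% in WT +Leu, 16% in WT -Leu and 3.45% in GCN2 KO +Leu, and 17.9% of WT +Leu peaks had a -Leu peak. With 50 or more, the WT ratio was 3.46, the first-intron share was 12.9% and 13% in the WT lists and 12.1% in GCN2 KO +Leu, the motif share was 43.8%, 33.1%, 19% and 27.3% and the share within 5 kb in WT +Leu 39.6%. The motif difference from later introns then turned to -0.201 points in WT -Leu, and in GCN2 KO -Leu it was 16.7 points and the TSS difference 25.8 points, both with intervals that held 0 over only 11 peaks. Including repeats and CpG islands gave first-intron shares of 12.2%, 13.2%, 12.5% and 10.4%. The whole window gave a motif share of 13.7% in WT -Leu and any base at position 6 one of 15.7%. A TSS limit of 2 kb gave 17.5%, 22.1%, 17.1% and 16.3%, and 10 kb gave 48.5%, 50.5%, 50.9% and 50.2%. Percentile ranks turned the median ratio at common WT sites from 2.90 to 0.998. The following were chosen after seeing the data. Allowing 1 differing base raised motif shares to 12.2%, 27.0%, 8.96% and 9.09%, and the intervals of the differences of 3.0 points in WT +Leu and 3.27 in GCN2 KO -Leu then held 0. Within 5 kb of a TSS the differences of 3.42 points in WT -Leu and 1.66 in GCN2 KO -Leu, and beyond 5 kb that of 2.52 in WT -Leu, had intervals that held 0, and in GCN2 KO +Leu the difference beyond 5 kb was -0.0682. The cause was not tested for any of these. No paired analysis was possible because each condition had 1 library. The lists give no depth, so no limit of detection could be set.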

Other observations

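Gm5095 on chromosome 18 held 1 of the 10 strongest first-intron peaks of WT -Leu (1031, with TGATGCAA within 50 bp), and its sequence is not shown here. At Foxp1, a forkhead transcription factor gene chosen after its values were seen, 2 first-intron sites were listed in both WT lists, at 105 and 584 and at 97 and 413 in +Leu and -Leu, and a further site was listed in WT -Leu only, at 338. The site with 584 held no TGATGNAA within 50 bp of either center, while those with 413 and 338 held TGATGCAA.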
